A study of Ovis aries with 6 samples.

Results

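The genes described here are 195 members of 7 gene families of the ubiquitin system, out of 14480 genes in the deposited gene table. The families were chosen with earlier results of these data known, and their members were taken by symbol. They are UBE2 (E2 enzymes), FBXL, FBXO and FBXW (F-box proteins, the substrate receptors of cullin ligases), RNF and TRIM (RING finger proteins, many of which are E3 ligases) and USP (deubiquitinases). The numbers are 25 UBE2, 12 FBXL, 24 FBXO, 5 FBXW, 56 RNF, 30 TRIM and 43 USP genes. Ubiquitin is a small protein that cells attach to other proteins, most often to mark them for destruction by the proteasome. An E1 enzyme activates ubiquitin, an E2 conjugating enzyme carries it, and an E3 ligase picks the substrate; deubiquitinases remove the tag again. The system drives the destruction of cyclins in mitosis and in the meiotic divisions of the oocyte, ends signalling from growth factor receptors and modifies histones. A symbol does not prove the activity: UBE2M and UBE2F carry NEDD8, UBE2L6 carries ISG15, and USP39 lacks the active site of its family and acts in splicing.

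The series holds 6 ovary libraries of polyadenylated RNA from sheep (Ovis aries) in estrus, 3 of Hu sheep, a prolific Chinese breed, and 3 of Mongolian sheep, which usually bear a single lamb. The labels give breed and tissue and name no age, treatment or allele, and they do not say whether the libraries of a breed came from separate animals, so p-values measure only the spread between these libraries. Although exosomes appear in the series title, each sample is labelled as ovary. Levels are FPKM (fragments scaled to gene length and library size), which may be compared between genes; read numbers behind them are unknown. The 3 values of a breed follow the order of replicates 1, 2 and 3. A difference is always Hu minus Mongolian on the log2(FPKM + 1) scale with its standard error (SE), a scale that understates the change of low genes. In whole ovary tissue, fewer cells of a type and less RNA per cell cannot be told apart.

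The libraries did not list these genes equally. Members above 0 FPKM numbered 108, 130 and 186 of 195 in Hu and 162, 173 and 161 in Mongolian. The median member level was 0.340, 1.38 and 4.68 FPKM (Hu) against 2.13, 2.47 and 3.103 (Mongolian), so the libraries with the lowest and the highest median both belong to Hu. Listing of all genes was likewise lowest in Hu 1 and Hu 2 and highest in Hu 3, with 44.9%, 55.05% and 92.1% of them listed in Hu and 72.8%, 79.2% and 73.2% in Mongolian. Hu 3 held the highest value of 108 of the 195 members (55.4%) and of 45.5% of all genes. Members took 0.436%, 0.598% and 0.770% of the FPKM left after the 2 most abundant assembled genes in Hu, and 0.717%, 0.684% and 0.850% in Mongolian. Those 2 genes took 53.3% to 79.7% of a library. A value of 0 can be a failed estimate in these libraries and is described only as listed at 0. Stromal and smooth muscle markers of ovary were present in every library: the 5 stromal markers summed to 665, 860.1 and 796 FPKM (Hu) against 746, 681 and 635 (Mongolian), and the 5 smooth muscle markers to 551, 664 and 1323 in Hu and 860.3, 666 and 828 in Mongolian. Of the stromal markers only LUM was without overlap, higher in Hu, with 57.2, 62.5 and 114 FPKM (Hu) against 53.3, 54.2 and 20.1 (Mongolian). Oocyte markers were nearly absent: 2 of 5 were listed, ZP3 and GDF9, and together they reached 0.888 FPKM at most. Of 7 granulosa markers 4 were listed, INHA, INHBA, HSD17B1 and FSHR, and they summed to 182, 26.2 and 79.2 FPKM (Hu) against 43.6, 44.8 and 55.5 (Mongolian); AMH, FOXL2 and CYP19A1 were not listed by symbol. The inhibin subunit INHA had 99.1, 15.6 and 45.2 FPKM (Hu) against 25.9, 15.8 and 40.4 (Mongolian), with overlap. INHBA also overlapped, with 83.0, 9.72 and 32.8 FPKM (Hu) against 14.0, 26.6 and 6.72 (Mongolian). HSD17B1, an enzyme of estradiol synthesis, had 0, 0 and 0.629 FPKM (Hu) against 3.69, 2.46 and 6.52 (Mongolian), every Hu value below every Mongolian value. Of the 4 listed granulosa markers, all tested, 3 had a positive difference and 1 a negative one.

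**Figure D1:**
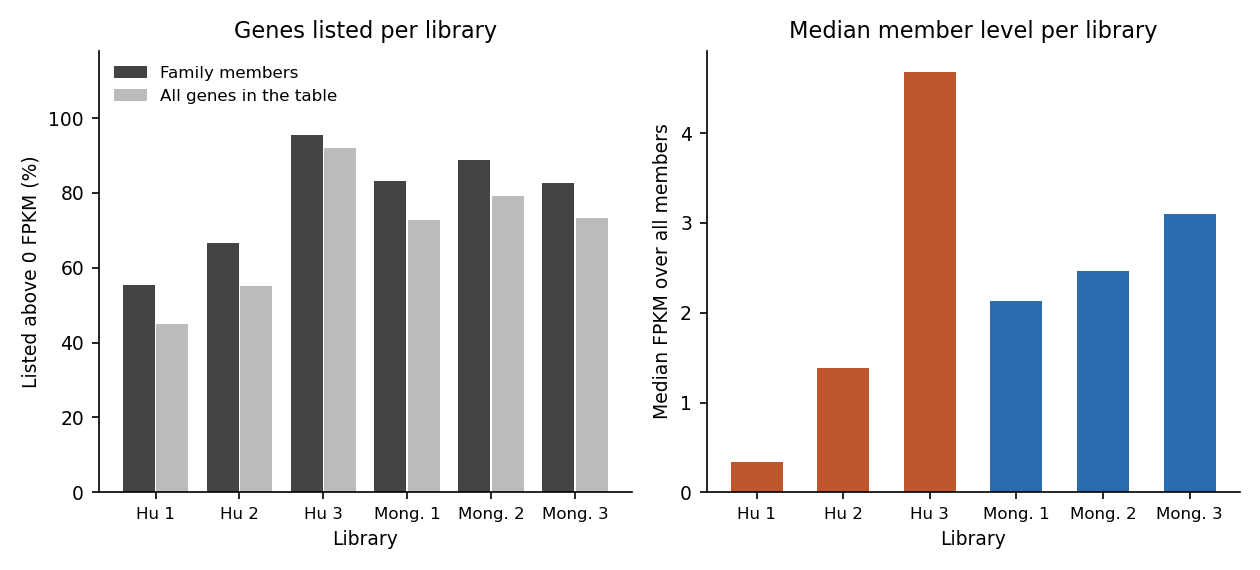
Left, the percentage of genes listed above 0 FPKM in each library, for the 195 family members (dark bars) and all 14480 genes (light bars); right, the median FPKM of the 195 members in each library (orange, Hu; blue, Mongolian; Mong., Mongolian). Members were listed more often than all genes in each of the 6 libraries, and Hu 1 lies lowest and Hu 3 highest in both panels.

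These genes were listed more widely than the table as a whole. Of the 195 members 93 (47.7%) were above 0 in all 6 libraries, against 34.8% of all genes and 37.9% of the genes with a symbol. The USP family had the widest listing among the larger families, with 26 of 43 members (60.5%) in all 6 libraries, and FBXL the narrowest, with 3 of 12. No member was listed in all 3 libraries of a breed and at 0 in all 3 of the other. The shares of all genes with this pattern and with those that follow were not counted, so these counts describe the members only. In Hu 1, 44.6% of the members and 55.1% of all genes were at 0. At 0 in Hu 1 alone were 28 members, and 16 were at 0 in Hu 1 and Hu 2 but above 0 in Hu 3 and in all 3 Mongolian libraries. The 13 members at 0 in all Mongolian libraries but above 0 somewhere in Hu were each listed in Hu 3 alone. They reach from 0.111 FPKM for FBXL2 to 4.36 for RNF185, a ligase of the endoplasmic reticulum. The reverse group of 6 members, at 0 in all Hu libraries, was FBXO4, FBXO41, FBXO48, FBXL6, FBXW9 and UBE2C. In no library did UBE2C, the E2 that starts chains for the anaphase-promoting complex in mitosis, exceed the 1.52 FPKM of Mongolian 2, and FBXO5, the inhibitor of that complex, reached 0.604 FPKM in Hu 3 alone.

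Mean levels over the 6 libraries ran from 0.0185 FPKM for FBXL2 to 61.9 for FBXO32, with a median of 2.78 FPKM, against 1.91 over all genes. Of the 195 members 18 averaged at least 10 FPKM and 42 averaged under 1. By family, the median of the members' mean levels was 4.36 FPKM for UBE2, 4.44 for FBXW, 3.42 for RNF, 2.43 for USP, 2.35 for TRIM, 2.32 for FBXO and 1.22 for FBXL. Correlations of log2(FPKM + 1) over the 195 members, which are across genes of the same libraries and not across replicates, ranged from 0.59 to 0.82 between libraries. The highest was that of Mongolian 1 with Mongolian 2 and the lowest that of Hu 3 with Mongolian 3. Among the 20 most abundant members of each library, 6 were the same in all 6, among them FBXO32, RNF187, UBE2Q2, TRIM28 and RNF10.

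**Figure D2:**
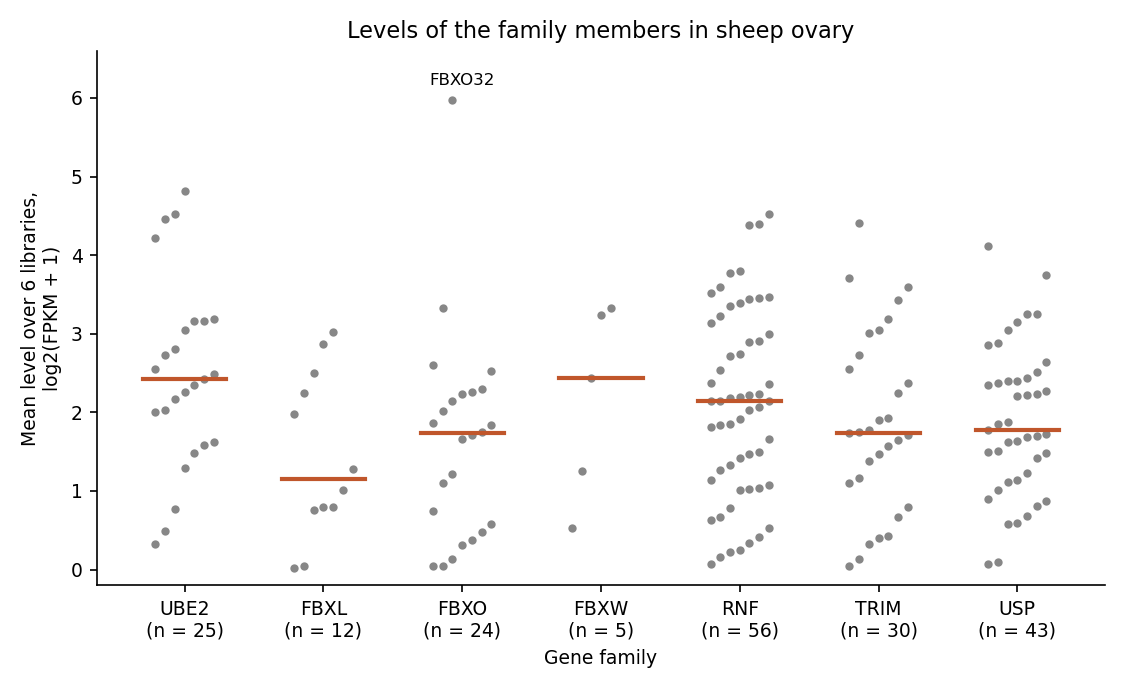
Mean level of each of the 195 members over the 6 libraries, as log2(FPKM + 1), by family; each point is a gene, the horizontal bar is the family median and the most abundant member is named. FBXO32, at a mean of 61.9 FPKM, lies above every other member, and the medians of UBE2 and FBXW lie above those of the other families.

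Among the abundant conjugating enzymes UBE2S, which extends ubiquitin chains for the anaphase-promoting complex, had 12.5, 7.89 and 26.7 FPKM (Hu) against 27.8, 27.5 and 29.95 (Mongolian). All 3 Hu values of UBE2S lay below the Mongolian values, Hu 3 by a small margin, and the log2 difference was -0.98 ± 0.55 with limma's unadjusted p at 0.0945 and adjusted p at 0.998. The UBE2S difference was -1.42 without Hu 3 and -0.60 without Hu 2. UBE2Q2, an E2 with an extended amino-terminal part, had 6.76, 11.5 and 50.7 FPKM (Hu) against 28.04, 15.4 and 13.8 (Mongolian), so that Hu 1 and Hu 3 held the extremes. UBE2G2, which works with ligases of the endoplasmic reticulum, had 7.87, 26.8 and 22.8 FPKM (Hu) against 20.3, 16.5 and 11.1 (Mongolian). Of these 3, no neighbours in the order differ beyond their spread, with SDs over 6 libraries of 9.36, 16.2 and 7.16 FPKM.

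The E2s that act with many RING ligases were lower. UBE2D3 had 3.67, 2.31 and 19.2 FPKM (Hu) against 4.64, 3.19 and 2.89 (Mongolian), with Hu 3 far above the other libraries. UBE2D2, a near copy of UBE2D3, was listed at 0 in Hu 1 and Hu 2, with 0, 0 and 32.5 FPKM (Hu) against 6.14, 3.74 and 5.35 (Mongolian). Rows of such close copies can share reads: the UBE2D3 symbol stands on 4 rows of the table, of which the most abundant is used here, and USP16 on 2. UBE2H, the E2 of the large CTLH ligase, was also listed at 0 in both of those Hu libraries: 0, 0 and 10.6 FPKM (Hu) against 10.3, 11.5 and 16.3 (Mongolian). Its Hu 3 value lay inside the Mongolian range, so the breeds overlapped, and the log2 difference of -2.57 ± 0.88 was the most negative of any member (limma unadjusted p = 0.0103, adjusted p = 0.998). Without Hu 3 it was -3.75, and without Hu 1 it was -1.98.

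UBE2D4, of the same group, had 0, 2.75 and 9.09 FPKM (Hu) against 0, 6.65 and 0 (Mongolian), and UBE2Q1, a relative of UBE2Q2, had 10.97, 6.85 and 10.9 FPKM (Hu) against 9.09, 6.17 and 3.71 (Mongolian). The highest value was that of Hu 3 for UBE2D4 and that of Hu 1 for UBE2Q1, and the breeds overlapped in both.

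The pair UBE2N and UBE2V2, which together build chains used in signalling and DNA repair, were at 0.0748, 1.86 and 16.2 FPKM (Hu) against 0.226, 4.03 and 3.82 (Mongolian) for UBE2N and at 0, 0 and 9.68 FPKM (Hu) against 4.15, 10.04 and 0.609 (Mongolian) for UBE2V2. Among E2s of ubiquitin-like proteins, UBE2M, the NEDD8 carrier, had 0, 2.54 and 11.3 FPKM (Hu) against 2.56, 4.92 and 7.903 (Mongolian). UBE2L6, the E2 of the interferon-induced modifier ISG15, had 0, 22.1 and 4.98 FPKM (Hu) against 4.71, 9.901 and 1.89 (Mongolian), with Hu libraries at both ends of its range. UBE2F was listed in Hu 3 alone (4.24 FPKM), and UBE2T, which serves the Fanconi anaemia repair pathway, reached 1.15 FPKM at most. Of the 22 UBE2 genes tested, 7 had a positive and 15 a negative difference, and 0 were called by limma.

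F-box proteins hold the substrates of SCF ligases, which are built on a cullin. FBXO32, known as atrogin-1 for its part in muscle wasting, was the most abundant member of all and ranked 237 among the 14480 genes: 25.2, 31.02 and 147 FPKM (Hu) against 44.1, 59.1 and 65.02 (Mongolian). Hu held both the lowest and the highest value, and the difference was -0.18 ± 0.60. TRIM63, known as MuRF1 and another ligase of muscle wasting, had 7.67, 7.55 and 22.3 FPKM (Hu) against 7.99, 15.9 and 5.08 (Mongolian). Of 5 markers of striated muscle 2 were listed by symbol: cardiac troponin TNNI3, with 8.81, 3.82 and 26.3 FPKM (Mongolian) against 0, 0 and 2.36 (Hu), and creatine kinase CKM, at most 0.221 FPKM. They summed to 0, 0 and 2.58 FPKM (Hu) against 8.91, 3.82 and 26.3 (Mongolian). All 5 smooth muscle markers were listed in every library. In 4 of them (ACTA2, TAGLN, CNN1 and DES) the breeds overlapped, and MYH11, with 105, 110.2 and 176 FPKM (Hu) against 224, 195 and 303 (Mongolian), was lower in every Hu library. The part of any muscle cells in the levels of FBXO32 and TRIM63 was not tested.

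FBXW7, the receptor for cyclin E, MYC and NOTCH, was the most abundant FBXW gene, with 9.72, 3.56 and 13.5 FPKM (Hu) against 11.4, 5.52 and 10.8 (Mongolian). FBXW4 followed with 0.516, 7.97 and 23.7 FPKM (Hu) against 7.98, 6.22 and 4.31 (Mongolian), a wider spread, and FBXW2 with 3.13, 2.34 and 6.55 FPKM (Hu) against 2.92, 6.38 and 5.305 (Mongolian). The 3 overlapped between breeds, and FBXW11, a receptor for beta-catenin, stayed at or under 2.98 FPKM. In the FBXO family, FBXO11, a receptor for BCL6, had 7.47, 5.799 and 20.6 FPKM (Hu) against 8.27, 6.79 and 5.104 (Mongolian). FBXO3 had 2.12, 4.02 and 12.2 FPKM (Hu) against 5.22, 3.698 and 3.26 (Mongolian), and FBXO21 0, 2.06 and 5.73 FPKM (Hu) against 7.23, 3.46 and 10.2 (Mongolian). For FBXO11 and FBXO3 Hu 3 alone stood clearly above the rest, whereas FBXO21 had 2 of its 3 highest values in Mongolian.

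Among the less abundant FBXO genes, FBXO28 had 1.15, 1.68 and 10.2 FPKM (Hu) against 2.13, 1.83 and 1.28 (Mongolian) and FBXO25 4.09, 0 and 4.91 FPKM (Hu) against 0, 2.47 and 1.45 (Mongolian), again with overlap.

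FBXL17, which removes wrongly paired BTB proteins, led the FBXL family with 1.96, 12.9 and 18.7 FPKM (Hu) against 3.103, 2.67 and 3.58 (Mongolian). Its Hu 2 and Hu 3 values lay above, and its Hu 1 value below, all Mongolian values. The iron-sensing FBXL5 had 0, 4.06 and 8.35 FPKM (Hu) against 1.15, 2.83 and 1.36 (Mongolian). FBXL19, which binds unmethylated CpG islands through a zinc finger, had 10.3, 4.39 and 10.8 FPKM (Mongolian) against 1.04, 0 and 1.33 (Hu). The breeds did not overlap, with every Hu value at or under 1.33 FPKM and every Mongolian value at or above 4.39, and the difference of -2.42 ± 0.74 had the smallest p of any member (limma unadjusted p = 0.00505, adjusted p = 0.998). Leaving out each library in turn gave -2.78 to -2.04 for FBXL19. FBXL8 had 0, 0 and 0.644 FPKM (Hu) against 5.66, 2.26 and 0 (Mongolian). Positive differences numbered 3 of 8 FBXL, 7 of 16 FBXO and 0 of 4 FBXW genes tested.

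Among the RING finger genes, RNF187, a coactivator of the transcription factor AP-1, was the most abundant and among the steadiest, with 23.6, 14.2 and 20.2 FPKM (Hu) against 17.01, 25.8 and 30.95 (Mongolian) (coefficient of variation 27.8% over the 6 libraries). RNF11, a small RING protein of the A20 complex that restrains NF-kappaB, had 2.41, 12.7 and 39.8 FPKM (Hu) against 18.2, 28.3 and 19.5 (Mongolian). RNF10 had 6.6995, 17.2 and 31.1 FPKM (Hu) against 27.3, 17.7 and 19.4 (Mongolian), and RNF19A 7.11, 8.31 and 21.99 FPKM (Hu) against 12.5, 14.99 and 12.6 (Mongolian). The steadiest of all members was RNF214: 6.698, 6.26 and 6.89 FPKM (Hu) against 6.58, 6.93 and 8.4003 (Mongolian), a coefficient of variation of 10.7%. RNF8, which starts ubiquitin signalling at broken DNA, came next at 25.7%, with 6.18, 3.53 and 6.86 FPKM (Hu) against 6.25, 7.57 and 8.36 (Mongolian). These values show that Hu 1 did not list every gene low: RNF214 and RNF8 were near their mean there.

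Several members act on chromatin. RNF20, which with RNF40 marks histone H2B, had 8.31, 5.03 and 15.6 FPKM (Hu) against 12.03, 11.2 and 10.4 (Mongolian), and RNF40 4.29, 6.24 and 8.87 FPKM (Hu) against 6.84, 9.999 and 18.9 (Mongolian). RNF2, the catalytic subunit of the Polycomb complex that marks histone H2A, had 6.04, 4.795 and 17.5 FPKM (Hu) against 2.13, 1.95 and 1.08 (Mongolian). Every Hu value of RNF2 lay above every Mongolian value, and the difference was 1.76 ± 0.71 (95% confidence interval 0.25 to 3.28; limma unadjusted p = 0.0251, adjusted p = 0.998). With array weights it was 1.15. USP16, which removes that H2A mark, had 2.77, 2.44 and 10.997 FPKM (Hu) against 3.03, 1.92 and 0.808 (Mongolian) on its more abundant row, with Hu 3 highest and the breeds overlapping. Its other row held 6.36, 2.33 and 3.68 FPKM (Hu) against 2.98, 3.96 and 1.39 (Mongolian). TRIM28, the corepressor that zinc finger proteins recruit to silence retroelements, had 7.02, 13.8 and 23.7 FPKM (Hu) against 26.1, 20.1 and 31.01 (Mongolian), and USP22, the deubiquitinase of the SAGA coactivator, 5.43, 16.4 and 24.1 FPKM (Hu) against 25.4, 10.6 and 15.8 (Mongolian). The breeds overlapped in both.

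RNF181 had 4.22, 9.69 and 13.9 FPKM (Hu) against 4.599, 1.73 and 0 (Mongolian), and its Hu 1 value lay below Mongolian 1, so that the breeds overlapped; the difference was 1.92 ± 0.79 (limma unadjusted p = 0.0273, adjusted p = 0.998). Without Mongolian 3, where RNF181 was listed at 0, it was 1.26. RNF26, a ligase of the endoplasmic reticulum membrane that positions endosomes, had 0, 0.655 and 1.61 FPKM (Hu) against 7.06, 2.06 and 13.6 (Mongolian). All Hu values lay below all Mongolian values, with a difference of -2.13 ± 0.80 (limma unadjusted p = 0.0177, adjusted p = 0.998). RNF112 had 0, 0.646 and 0.2104 FPKM (Hu) against 1.02, 0.885 and 3.52 (Mongolian). RNF213, a very large ligase known from moyamoya disease, had 1.99, 1.27 and 1.57 FPKM (Hu) against 3.08, 3.65 and 8.92 (Mongolian). Both were also without overlap, Hu below Mongolian, and neither had an unadjusted p under 0.05. RNF123, which acts on the cell cycle inhibitor p27, had 0, 0.267 and 1.39 FPKM (Hu) against 1.36, 2.15 and 4.82 (Mongolian). RNF141 had 0, 0 and 7.25 FPKM (Hu) against 4.03, 7.03 and 3.99 (Mongolian), and RNF44 0, 1.47 and 1.796 FPKM (Hu) against 6.53, 1.68 and 3.55 (Mongolian); their breeds overlapped. RNF114 had 9.86, 10.4 and 14.4 FPKM (Hu) against 4.37, 13.6 and 7.33 (Mongolian) and RNF130 3.84, 15.9 and 24.5 FPKM (Hu) against 16.4, 12.5 and 2.74 (Mongolian). Among the 47 RNF genes tested 11 differences were positive and 36 negative.

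In the TRIM family TRIM28 was followed by TRIM2, with 5.83, 13.02 and 17.4 FPKM (Hu) against 13.3, 8.56 and 14.6 (Mongolian), and by TRIM63 and TRIM27, with 5.32, 10.7 and 14.2 FPKM (Hu) against 12.6, 8.24 and 7.58 (Mongolian) for TRIM27. TRIM21, the antibody receptor of the cytosol, had 6.39, 12.5 and 8.13 FPKM (Hu) against 1.82, 3.06 and 2.01 (Mongolian). Its Hu values lay above all Mongolian values, with a log2 difference of 1.57 ± 0.65 (95% confidence interval 0.19 to 2.96; limma unadjusted p = 0.0285, adjusted p = 0.998). Leaving out each library in turn gave 1.34 to 1.77 for TRIM21. The sign could not change in this check, because the breeds did not overlap. TRIM52 lay the other way, with 0.0599, 0.727 and 0.442 FPKM (Hu) against 1.95, 3.19 and 7.23 (Mongolian), a difference of -1.76 ± 0.71 and no overlap (limma unadjusted p = 0.0263, adjusted p = 0.998). After quantile normalization the TRIM52 difference was -1.09. TRIM25, which activates the RNA sensor RIG-I, overlapped between breeds with 4.198, 4.01 and 10.6 FPKM (Hu) against 7.25, 7.603 and 9.81 (Mongolian). Of 11 listed genes of interferon response and innate immunity, TRIM21 among them, 10 were tested, 3 with a positive difference and 7 with a negative one. Of 5 blood and immune markers 3 were listed, and they summed to 6.14, 19.3 and 8.78 FPKM (Hu) against 9.13, 33.01 and 7.45 (Mongolian). PTPRC, the common leukocyte antigen, had 1.22, 0 and 1.36 FPKM (Hu) against 2.15, 3.96 and 3.87 (Mongolian), with every Hu value below every Mongolian value. CD68 of macrophages had 4.93, 19.3 and 7.42 FPKM (Hu) against 6.01, 29.1 and 3.57 (Mongolian), and CD3E of T cells was listed in Mongolian 1 alone. Their part in the TRIM21 values was not tested.

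Deubiquitinases of the USP family were led by USP22, followed by USP8, which strips ubiquitin from growth factor receptors on endosomes: 13.4, 6.33 and 21.5 FPKM (Hu) against 13.1, 11.8 and 8.61 (Mongolian). USP11 had 1.62, 3.83 and 11.5 FPKM (Hu) against 13.2, 8.93 and 11.99 (Mongolian), with its 2 lowest values in Hu 1 and Hu 2, and the nucleolar USP36 7.27, 6.43 and 4.54 FPKM (Hu) against 9.29, 6.29 and 17.2 (Mongolian). USP7, which stabilises MDM2, had 4.59, 3.38 and 13.7 FPKM (Hu) against 7.41, 8.13 and 9.96 (Mongolian). The proteasome-bound USP14 had 1.97, 3.64 and 9.67 FPKM (Hu) against 1.98, 2.19 and 2.35 (Mongolian), with Hu 3 well above the other 5. USP46 had 0.869, 5.75 and 12.5 FPKM (Hu) against 3.896, 0.934 and 1.73 (Mongolian). USP28, a stabiliser of MYC, and USP30, which opposes the clearance of mitochondria, were listed at 0 in Hu 1 and Hu 2: 0, 0 and 3.13 FPKM (Hu) against 3.06, 2.48 and 2.45 (Mongolian) for USP28 and 0, 0 and 4.07 FPKM (Hu) against 3.98, 1.57 and 3.83 (Mongolian) for USP30. All 43 USP genes were above 0 in Hu 3, whereas 29 were in Hu 1. Of 38 tested, 12 differences were positive and 26 negative, 0 USP genes were free of overlap between breeds (1.88% of all genes were, higher in Hu, and 6.05%, lower), and 0 had an unadjusted limma p under 0.05 (3.73% of all genes did).

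**Figure D3:**
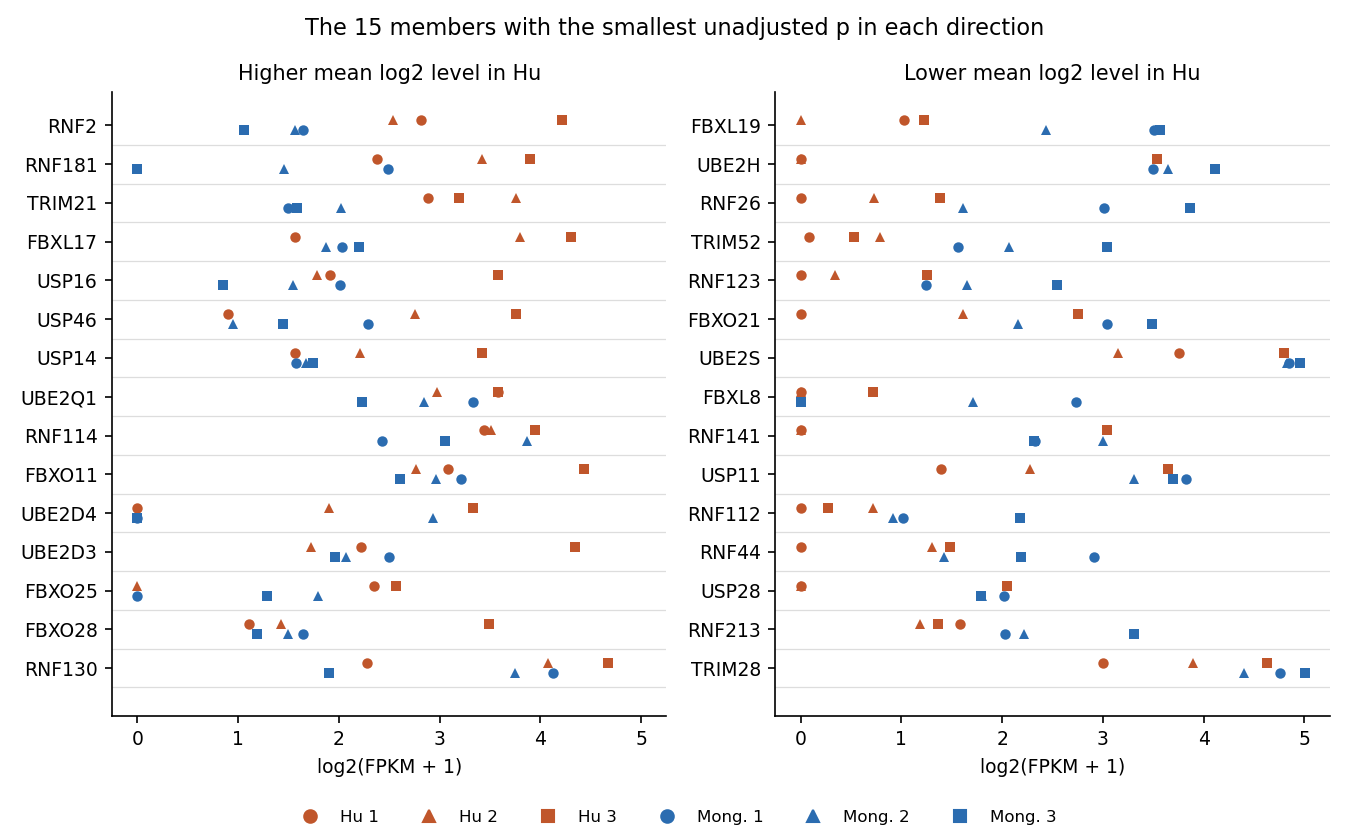
Level of each named member in each library as log2(FPKM + 1), for the 15 members with the smallest unadjusted p in each direction (orange, Hu; blue, Mongolian or Mong.; circle, triangle and square, replicates 1, 2 and 3; points at equal values cover each other). In RNF2 and TRIM21 all orange points lie to the right of the blue points, and in FBXL19, RNF26, TRIM52, UBE2S, RNF112 and RNF213 they lie to the left.

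The comparison between breeds asked whether members of these families differed between ovaries of a prolific and a less prolific breed. Of the 195 members 159 reached 0.5 FPKM in 3 or more libraries and were tested, and 36 were not. None was called: 0 of 159 passed limma's test at a Benjamini-Hochberg adjusted p under 0.05 in the fit over 9971 genes, where 0% of all genes were called, and the smallest adjusted p of a member was 0.998. At an unadjusted limma p under 0.05, 3 members were higher in Hu (1.89%, against 0.913% of all genes) and 4 lower (2.52%, against 2.82%), together 4.4% against 3.73%. These 7 are RNF2, RNF181 and TRIM21, higher, and FBXL19, UBE2H, RNF26 and TRIM52, lower. The size of a difference that involves values near 0 depended on the pseudocount: with 0.01 in place of 1, RNF181 was at 4.26, FBXL19 at -5.03, UBE2H at -6.93, RNF26 at -4.72 and TRIM52 at -3.64. The breeds did not overlap in 2 members higher in Hu (1.26%, against 1.88% of all genes) and 6 lower (3.77%, against 6.05%). The share higher in Hu at an unadjusted p under 0.05 rests on 3 genes, and the other shares were near or under those of all genes. With array weights, which let limma weight each library by its spread, 10 members had an adjusted p under 0.05. USP3, UBE2D2, FBXL19, FBXO9, RNF5, USP28, RNF141, UBE2H and UBE2S were lower in Hu and TRIM21 higher. That setting called 633 of all 9971 genes. The members' median difference was -0.49 with array weights and -0.29 without them. It was -0.54 without Hu 1 and Hu 3 together, where Hu 2 is the only Hu library. The 10 calls may therefore rest largely on 1 Hu library, which was not tested. UBE2D2, RNF5, USP28, RNF141 and UBE2H were listed at 0 in Hu 1 and Hu 2, and FBXL19 and FBXO9 in Hu 2 alone. The lowest value of USP3 over the 6 libraries was also 0. FBXO9 had 3.71, 0 and 4.92 FPKM (Hu) against 5.93, 4.09 and 4.83 (Mongolian). Its difference was -0.96 without weights and -2.23 with them, and that of UBE2D2 -0.89 and -2.30.

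Positive differences were found in 43 of the 159 members (27%, against 32.3% of all genes). The median difference of the members was -0.29, and that of all genes tested -0.28. Differences ran from -2.57 for UBE2H to 1.92 for RNF181, and the median 95% confidence interval of a member reached 1.56 to either side, so a difference smaller than that was not resolved for a typical member. With Hu 1 left out the median became 0.04 for members and 0.01 for all genes, and with Hu 3 left out -0.72 and -0.66. After quantile normalization 53.5% of the members and 51.3% of all genes had positive differences, and the medians were 0.04 and 0.02. Under each setting tried the members' median minus that of all genes lay between -0.0938 and 0.0690.

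**Figure D4:**
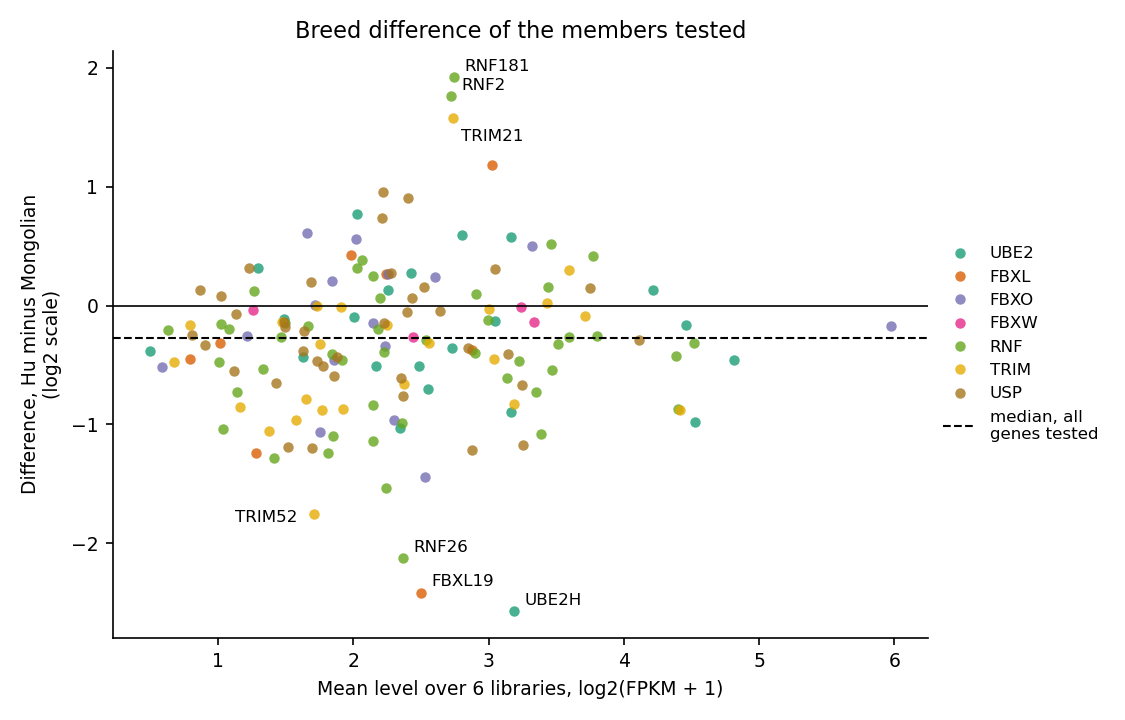
Difference between breeds (Hu minus Mongolian, on the log2 scale) against the mean level of each of the 159 members tested, coloured by family; the solid line is 0, the dashed line is the median of all 9971 genes tested (-0.28), and the 7 members with an unadjusted p under 0.05 are named. Most points lie below 0 and around the dashed line.

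The families were compared as medians relative to all genes, because the scaling between libraries moves all genes, though not equally on this scale. The subtraction does not remove the scaling in full: USP minus all genes was 0.11 with median-of-ratios scaling and 0.17 after quantile normalization. The median difference was -0.26 for UBE2, -0.35 for FBXL, -0.16 for FBXO, -0.09 for FBXW, -0.32 for RNF, -0.39 for TRIM and -0.23 for USP. Relative to all genes these are 0.02, -0.07, 0.11, 0.18, -0.04, -0.11 and 0.04. Under the 3 other scalings TRIM (-0.08 to -0.05) and RNF (-0.07 to -0.04) lay below all genes and FBXO, FBXW and USP above, but other settings changed these sides. TRIM minus all genes was 0.03 without Mongolian 3 and 0.14 with the filter at 5 FPKM, and RNF minus all genes was 0.03 without Hu 1 and 0.01 without Hu 2. FBXO (-0.14) and FBXW (-0.04) lay below all genes with array weights, FBXW (-0.03) without Hu 1, and USP without Mongolian 2 (-0.02) and with the filter at 5 FPKM (-0.16). After quantile normalization the medians of UBE2, FBXL, FBXO, FBXW and USP were above 0 (0.06, 0.07, 0.24, 0.14 and 0.19). Without Hu 1 the medians of UBE2, FBXL, FBXO, RNF and USP were above 0, and those of FBXW (-0.01) and TRIM (-0.25) were below. No test was made between families.

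**Figure D5:**
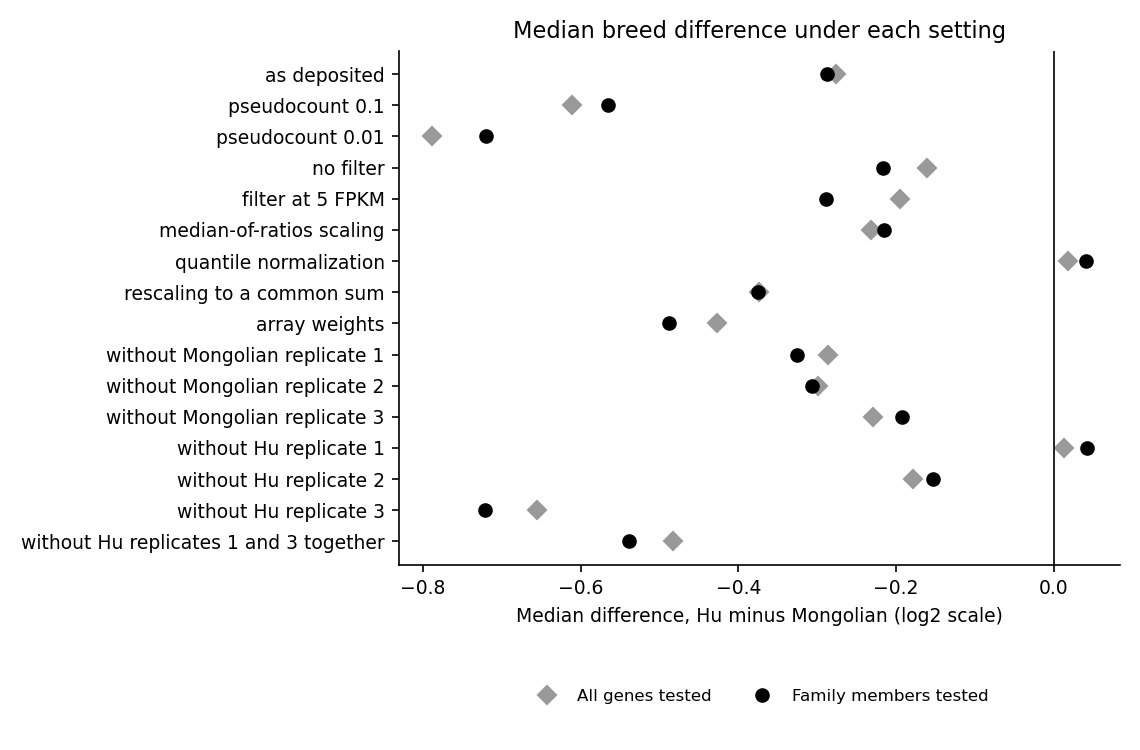
Median difference between breeds on the log2 scale, for the members tested (black circles) and all genes tested (grey diamonds), under each processing setting named on the left. The circles follow the diamonds, and both lie above 0 only after quantile normalization and without Hu replicate 1.

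By role, limma called 0 members of each list. The 12 listed genes of the DNA damage response summed to 18.8, 24.6 and 89.4 FPKM (Hu) against 50.6, 49.9 and 48.9 (Mongolian), with 3 of 11 tested differences positive. The 11 listed genes of endoplasmic reticulum quality control summed to 14.01, 40.6 and 74.8 in Hu and 37.3, 37.7 and 39.8 in Mongolian, with 3 of 9 positive. Both sums were lowest in Hu 1 and highest in Hu 3, on either side of a narrow Mongolian range. The 10 listed genes of WNT, TGF-beta and BMP signalling, such as the SMAD-directed ligase RNF111 with 2.67, 0.8801 and 6.004 FPKM (Hu) against 6.48, 1.78 and 4.28 (Mongolian), summed to 22.7, 31.6 and 80.7 in Hu and 59.8, 51.2 and 51.1 in Mongolian, with 2 of 9 positive. In chromatin and transcription the 11 listed genes had 2 of 10 positive, RNF2 and USP16. Of the 3 listed germ line and meiosis genes, FBXW7, also a receptor of cell cycle proteins, was above 0 in all 6 libraries (mean 9.07 FPKM). The others were scarce: TRIM36 was listed in 3 libraries, at 0.904 FPKM at most, and FBXO47 in Hu 3 alone (0.193 FPKM).

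The rest of the pathway was examined in a list of 192 genes that do not belong to the families, of which 164 were listed and 144 tested. Limma called 0 of the 144, and 37 differences were positive (32.3% of all genes tested were) and 107 negative, with a median of -0.27 against -0.28 over all genes. An unadjusted limma p under 0.05 was found in 1 of the 144, against 3.73% of all genes: ANAPC11, the RING subunit of the anaphase-promoting complex, with 7.38, 13.7 and 9.604 FPKM (Mongolian) against 0, 0 and 2.99 (Hu). Among ubiquitin genes, RPS27A, which encodes ubiquitin fused to a ribosomal protein, had 151, 294 and 661 FPKM (Hu) against 148, 421 and 195 (Mongolian), and UBB had 6.32, 0.0556 and 4.03 FPKM (Hu) against 2.52, 5.42 and 1.37 (Mongolian). The ubiquitin E1 UBA1 had 2.09, 4.69 and 6.01 FPKM (Hu) against 4.099, 2.16 and 6.27 (Mongolian). All of these overlapped between breeds except ANAPC11.

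Positive differences numbered 3 of 8 in E1 enzymes, 3 of 12 in cullin ligase cores, 4 of 12 in the anaphase-promoting complex, 4 of 24 in HECT ligases, 8 of 41 in other RING and U-box ligases and 9 of 23 in other deubiquitinases. SUMO3, a ubiquitin-like modifier, had 4.58, 5.93 and 38.7 FPKM (Hu) against 6.49, 9.296 and 4.63 (Mongolian). Among the ligases with the smallest p, MDM4, which restrains p53, had 0, 0.594 and 5.05 FPKM (Hu) against 6.14, 4.19 and 4.66 (Mongolian), DTX4 0, 0 and 3.16 FPKM (Hu) against 2.85, 2.83 and 4.55 (Mongolian) and the SMAD ligase SMURF2 0, 0 and 8.999 FPKM (Hu) against 6.26, 6.396 and 2.11 (Mongolian). In these 3 the low Hu values were again those of Hu 1 and Hu 2, with Hu 3 inside or above the Mongolian range. ZUP1, a deubiquitinase of long chains, lay the other way with 4.25, 4.25 and 5.59 FPKM (Hu) against 2.45, 1.42 and 0 (Mongolian) and no overlap (limma unadjusted p = 0.067, adjusted p = 0.998).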

How the data were processed

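The deposited table holds FPKM values that the authors computed for 14480 genes in 6 ovary libraries. Per the labels' protocols, libraries were made from 1 μg of total RNA with a SMARTer mRNA kit; no aligner, counter, build or annotation is named in the sources used here. The lncRNA table was not used, and 0 value columns lacked a sample. Family members and the role, pathway and marker lists were chosen with earlier results of these data known. Of 199 rows matching by symbol, the most abundant per symbol was kept, leaving 195; all were found in a RefSeq gene table (assembly ARS-UI_Ramb_v3.0), used for names only. No sequence was used here. Genes that reached 0.5 FPKM in 3 or more libraries were fitted on log2(FPKM + 1) with limma 3.58.1 in R 4.3.3 (eBayes with a trend, two-sided, breed as the factor) and Benjamini-Hochberg adjustment over 9971 genes; a call is an adjusted p under 0.05. Depth is unknown: whole reads could not be recovered from the low values, so no count test was run. Members described individually are the 4 most abundant of each family, the 15 with the smallest unadjusted p in each direction, the 3 most abundant of each role list and the 2 pathway genes of smallest p per list, except a few that are not reported here; others named, such as markers and genes listed in few libraries, were chosen after their values were seen. Alternatives changed the pseudocount (0.1, 0.01), the filter (none, 5 FPKM), the scaling (median of ratios, quantile, common sum), the fit (replicate block, array weights, no trend, robust), the rows per symbol and each library left out. The fit was tested on simulated data. Recovery of the set changes was required only at a reduced spread, and at the spread of these libraries only their direction. Recovery at that spread is not reported here.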

Additional observations from a re-analysis of the deposited data

How the results depend on the processing

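The count of called members was 0 under the settings tried except array weights, which called 10. At an unadjusted p under 0.05, members higher in Hu numbered 1 with the filter at 5 FPKM and 5 with array weights, and 0 to 5 without each library in turn, against 3. Those lower numbered 2 with a pseudocount of 0.01, 1 with the filter at 5 FPKM, 11 after rescaling to a common sum and 42 with array weights, against 4. Without each library in turn they numbered 3 to 30 (30 without Hu 3). Of all 9971 genes 163, 609, 2299 and 1466 were lower at that p with a pseudocount of 0.01, a common sum, array weights and without Hu 3. Higher at that p were 446 with array weights and 302 without Hu 1. With the filter at 5 FPKM 54 of 3619 genes were higher and 72 lower, with 49 members tested. Members without overlap, higher in Hu, numbered 1 with the filter at 5 FPKM, 5 with median-of-ratios scaling and 4 with a common sum, and 2 to 13 without each library (13 without Hu 1). Those lower numbered 1, 16 and 18 under the same settings and 6 to 60 without each library (60 without Hu 3). Of all 9971 genes 355, 212 and 1021 were higher without overlap with median-of-ratios scaling, with a common sum and without Hu 1. Of the same genes 820, 1067 and 3191 were lower without overlap with median-of-ratios scaling, with a common sum and without Hu 3. With the filter at 5 FPKM 97 of 3619 genes were higher and 172 lower without overlap. Without Hu 1 and Hu 3 together, a setting chosen after seeing the data, 17 members were lower at p under 0.05, 17 were higher and 77 lower without overlap, as were 1015, 1458 and 4252 of all 9971 genes; 1 Hu library then remained, assumed to vary like the others. Of the 30 members that are the 15 of smallest p in each direction, 6 turned negative in some setting. With array weights FBXO11 was at -0.12, UBE2D3 at -0.32 and FBXO25 at -0.50. Without Hu 3, FBXO11 was at -0.004, UBE2D4 at -0.026, UBE2D3 at -0.20, FBXO28 at -0.18 and RNF130 at -0.08; without Mongolian 3, RNF130 was at -0.26. Without Hu 1 and Hu 3, FBXO11 was at -0.16, UBE2D3 at -0.45, FBXO25 at -1.03 and FBXO28 at -0.023. Without each library in turn the highest differences were 0.83 for FBXO11, 1.75 for UBE2D4, 1.11 for UBE2D3, 1.01 for FBXO28 and 1.11 for RNF130. The causes were not tested. Deviations of same-numbered libraries from their breed means had correlations of -0.01, -0.03 and -0.18, and those of other pairs -0.11 to 0.16. Deviations from a mean of 3 libraries depend on each other, so this check cannot decide whether the numbers pair them. With the number as a replicate block 0 members were called, with 3 higher and 4 lower at an unadjusted limma p under 0.05. Precision is limited by 3 libraries a breed and unknown depth.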
